A study of Homo sapiens with 18 samples.

Results

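Parental PC9 cells given 50 nM trichostatin A (TSA) for 5 hours, with no change of medium, were set against parental PC9 cells given the solvent DMSO. PC9 is an established human line of non-small-cell lung cancer, driven by an active form of the receptor kinase EGFR. The 3 TSA libraries and the 3 DMSO libraries were chosen by their labels alone, and are 6 of the 18 RNA-sequencing libraries of the series. For comparison, 2 libraries of drug-tolerant persister (DTP) cells given TSA at the same dose and time were set against 3 libraries of DTP cells. DTP cells are the PC9 cells left alive after 8 days with erlotinib, which inhibits EGFR, at 1 µM. Libraries are named by group and replicate letter (a, b, c). All groups grew in RPMI-1640 with 10% serum, and RNA was selected by its polyA tail after ERCC spike-in RNA had been added by cell number. The labels give no time for DMSO, and the titles of the DTP libraries without TSA name no solvent. They do not state whether a, b and c came from different cultures, and the p-values below cover just the variation among the libraries at hand, which may be technical.

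TSA blocks the zinc-dependent histone deacetylases (HDACs), enzymes that remove acetyl groups from histones and other proteins. Acetyl groups are added by acetyltransferases such as EP300 and CREBBP and are read by bromodomain proteins. Inhibitors of HDACs are known to raise acetylation of chromatin within hours and to move many genes in either direction, with the CDK inhibitor gene CDKN1A as a textbook example of an induced gene. They are also known to activate LTR12 elements, the long terminal repeats of the HERV9 retrovirus family. LINE-1 (L1) elements, which the series is about, are retrotransposons that H3K9 methylation by enzymes such as SETDB1 helps to keep silent.

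The promoters of 5 genes that the results turn on are shown from 250 bases before to 50 after the RefSeq start (GRCh38.p14). DACT3 had the largest rise among genes of at least 10 CPM in the higher group, INSIG1 is among the sterol genes that rose, TUBA1A is among the largest rises and is set against DTP cells below, HSD3B1 had the largest fall among the protein-coding genes named at that level, and CDKN1A is the textbook target whose groups overlapped. Capitals mark the GC box core GGGCGG, the CCAAT box and the TATA box TATAAA on either strand, where adjoining matches run together. DACT3 lies at chr19:46661133-46661432 on the minus strand, INSIG1 at chr7:155297628-155297927 on the plus strand, TUBA1A at chr12:49189031-49189330 on the minus strand, CDKN1A at chr6:36678464-36678763 on the plus strand and HSD3B1 at chr1:119506953-119507252 on the plus strand.
DACT3: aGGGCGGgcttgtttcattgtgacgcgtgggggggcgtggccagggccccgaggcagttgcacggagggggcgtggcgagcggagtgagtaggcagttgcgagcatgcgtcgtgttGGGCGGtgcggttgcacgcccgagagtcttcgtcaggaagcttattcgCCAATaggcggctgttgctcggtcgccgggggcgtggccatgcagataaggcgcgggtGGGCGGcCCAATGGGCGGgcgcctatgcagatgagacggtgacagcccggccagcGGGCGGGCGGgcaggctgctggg
INSIG1: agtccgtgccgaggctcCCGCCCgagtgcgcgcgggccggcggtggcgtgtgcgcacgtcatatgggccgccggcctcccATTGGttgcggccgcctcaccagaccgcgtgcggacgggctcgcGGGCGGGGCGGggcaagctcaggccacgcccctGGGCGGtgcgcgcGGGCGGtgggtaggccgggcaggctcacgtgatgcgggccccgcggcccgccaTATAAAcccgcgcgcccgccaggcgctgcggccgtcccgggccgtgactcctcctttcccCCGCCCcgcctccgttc
TUBA1A: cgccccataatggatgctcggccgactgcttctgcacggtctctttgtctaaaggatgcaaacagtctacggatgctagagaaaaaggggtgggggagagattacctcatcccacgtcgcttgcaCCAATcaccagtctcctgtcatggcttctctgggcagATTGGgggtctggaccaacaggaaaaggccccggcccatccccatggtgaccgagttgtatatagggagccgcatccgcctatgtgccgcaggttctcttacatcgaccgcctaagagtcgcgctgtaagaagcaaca
CDKN1A: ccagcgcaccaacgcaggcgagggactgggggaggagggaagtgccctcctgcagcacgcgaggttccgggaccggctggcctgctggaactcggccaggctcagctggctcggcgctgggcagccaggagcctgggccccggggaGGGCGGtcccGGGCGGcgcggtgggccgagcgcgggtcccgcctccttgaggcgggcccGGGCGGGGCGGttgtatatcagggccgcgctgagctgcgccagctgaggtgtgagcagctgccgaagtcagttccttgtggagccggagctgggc
HSD3B1: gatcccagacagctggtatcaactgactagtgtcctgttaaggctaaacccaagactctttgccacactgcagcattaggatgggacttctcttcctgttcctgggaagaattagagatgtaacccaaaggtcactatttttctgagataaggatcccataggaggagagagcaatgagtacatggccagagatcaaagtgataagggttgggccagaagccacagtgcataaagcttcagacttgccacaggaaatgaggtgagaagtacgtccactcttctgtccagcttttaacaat
The DACT3 window held 6 matches to GGGCGG and 2 to CCAAT. The INSIG1 window held 6 to GGGCGG, 1 to CCAAT and 1 to TATAAA. The TUBA1A window held 0 to GGGCGG and 2 to CCAAT. The CDKN1A window held 4 to GGGCGG, and the HSD3B1 window held no match to the motifs searched. Over all genes, 72.5% of the 3316 promoters of genes called higher and 67.7% of the 3207 promoters of genes called lower held GGGCGG, beside 69.3% of the 11066 promoters of protein-coding genes tested and 44.6% of the 27305 promoters in the RefSeq table. CCAAT was found in 40.6% of promoters of genes called higher, 33.8% of those called lower and 36.4% of those tested, beside 35.7% in the table. TATAAA was in 5.67%, 5.61% and 5.95% of the same promoters, beside 12% in the table, and the AP-1 site TGACTCA in 3.17%, 3.59% and 3.24%, beside 4.92% in the table. A promoter was found for 81.8% of the protein-coding genes tested. A match is a description of letters and was not tested.

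The libraries held 68.8 M, 109 M and 128 M gene reads with TSA and 80.9 M, 83.5 M and 79.3 M with DMSO. TSA a stood apart from its mates. Its Pearson correlation across genes was 0.9817 with TSA b and 0.9718 with TSA c, where TSA b and c reached 0.9932 and the DMSO pairs lay between 0.9921 and 0.9935 (genes are not independent replicates). It also gave less to long transcripts. Among the genes in the top quartile of transcript length (median 4290 bases), the median log2 ratio to the DMSO mean was -0.37 in TSA a, -0.10 in TSA b and 0.01 in TSA c, while in the bottom quartile (median 768 bases) it was 0.28, 0.08 and 0.01. Spike-in reads per 100 gene reads were 0.786, 0.535 and 0.502 with TSA and 0.539, 0.524 and 0.538 with DMSO. The means were 0.607 ± 0.155 with TSA and 0.534 ± 0.00805 with DMSO (SD, n = 3 each). The mean log2 ratio differed by 0.16 with an exact 2-sided permutation p of 0.9, where 3 libraries against 3 cannot go below 0.1, and by -0.04 without TSA a. Spike-in was added by cell number, so a shift in RNA per cell and an error in the cell number cannot be told apart. DMSO b held more ribosomal and other structural RNA, at 3.08 reads per 100 gene reads against 0.868 and 0.482 in the other DMSO libraries and 0.959, 0.896 and 0.96 with TSA. Epithelial markers fixed for PC9 (EPCAM, CDH1 and keratins) summed to 5416, 4465 and 4266 CPM (counts scaled to the TMM-adjusted gene reads of each library) with TSA and to 4872, 4677 and 4885 CPM with DMSO. Fibroblast markers summed to at most 14.5 CPM, endothelial markers to at most 23 CPM and leukocyte markers to at most 35.5 CPM in any of the 6 libraries.

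With TSA, 4706 of 15792 genes tested were higher (29.8%) and 4243 were lower (26.9%) at an adjusted p under 0.05 (edgeR quasi-likelihood test, Benjamini-Hochberg). The rises were larger than the falls. Of the genes called, 2321 rose and 1217 fell at least 2-fold, 864 rose and 158 fell at least 4-fold, and 358 rose and 34 fell at least 8-fold. The direction also went with the level of the gene. In the bottom quartile of mean level (median 0.434 CPM) 37.9% were called higher and 11.8% lower, while in the top quartile (median 111 CPM) 16.6% were higher and 38.4% lower. Without TSA a, 36.3% of genes were called higher and 35.3% lower, and these held 99.1% of the higher and 99.7% of the lower calls made with all 6 libraries. Spike-in reads as library sizes gave 2929 higher and 1516 lower, so that 65.9% of calls were higher against 52.6%. With the trend on transcript length taken out of each library, 3534 were higher and 5247 lower (40.2% of calls higher), on a scale where the median gene stood at -0.12. With spike-in reads the median gene stayed at 0.03, while the coefficient of variation between libraries was 0.263 against 0.158. No gene called on TMM-adjusted gene reads was called in the opposite direction on either scale. Removal of the length trend moved the median, so the direction of a small change depends on that choice. Changes below are read against a median of 0.03 over all genes tested, and counts against 29.8% higher and 26.9% lower. Counts without TSA a are read against 36.3% and 35.3%. Counts with spike-in reads as library sizes are read against 2929 higher and 1516 lower of 15792.

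**Figure D1:**
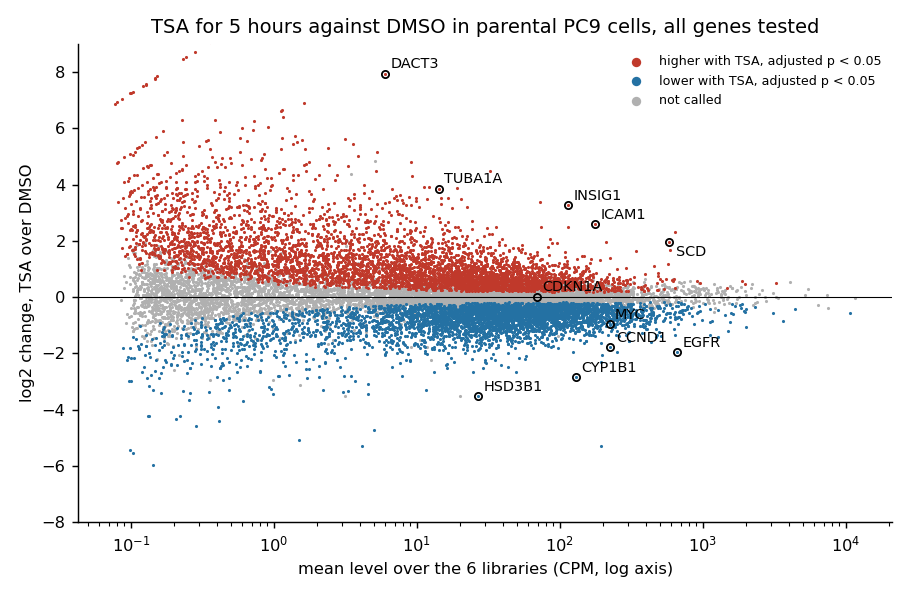
Each point is a gene tested, with its mean level over the 6 libraries in CPM on a log axis and its log2 change, TSA over DMSO, on the vertical axis. Genes called higher are red (4706), genes called lower blue (4243) and genes not called grey, and the largest rises lie among genes of low level.

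The largest rises at 10 CPM or more were in genes that DMSO cells barely used. DACT3, a regulator of Wnt signalling, had 14.4, 11.6 and 10.1 CPM with TSA and 0.0419, 0.0268 and 0.0849 CPM with DMSO, where all 3 libraries held 12 reads. It was 7.95 ± 0.31 higher on the log2 scale (SE, adjusted p = 2.11e-05). The cholesterol exporter ABCG1 had 17.4, 17.6 and 17.6 CPM with TSA and 0.489, 0.55 and 0.821 CPM with DMSO (log2 change 4.82 ± 0.19). The angiogenic growth factor gene PGF followed (log2 change 4.31 ± 0.17), with the tight junction gene TJP3 (3.92 ± 0.18) and the ephrin receptor gene EPHB3 (3.90 ± 0.14). ENO2, the enolase of neurons, had 36.9, 36.1 and 34.4 CPM with TSA and 2.23, 2.49 and 2.52 CPM with DMSO (log2 change 3.88 ± 0.09). TUBA1A, an alpha-tubulin prominent in neurons, had 29.4, 26.3 and 24.7 CPM with TSA and 1.92, 1.86 and 1.79 CPM with DMSO (log2 change 3.85 ± 0.11). In each of these genes every TSA library lay above every DMSO library. The ubiquitin ligase gene NEURL1B (3.83 ± 0.13), SSBP2 (3.60 ± 0.17) and the calpain gene CAPN5 (3.53 ± 0.13) completed the 10, whose adjusted p ran from 8.32e-06 to 2.44e-05.

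The largest falls among genes of at least 10 CPM included protein-coding genes, a long noncoding RNA and structural RNAs. HSD3B1, an enzyme of steroid hormone synthesis, fell to 4.17, 4.33 and 4.37 CPM with TSA, against 50.6, 48.8 and 48.6 CPM with DMSO (log2 change -3.52 ± 0.08, adjusted p = 6.69e-06). CYP1B1, a cytochrome P450 induced by the aryl hydrocarbon receptor, had 27.6, 33.4 and 34.5 CPM with TSA and 227, 234 and 222 CPM with DMSO (log2 change -2.84 ± 0.11). The groups were far apart in both genes. The long noncoding RNA CCAT1 fell (-3.32 ± 0.19), as did ZNF469 (-2.81 ± 0.15), the cytokine gene CLCF1 (-2.68 ± 0.19), the metalloprotease gene ADAMTS9 (-2.67 ± 0.16), the activin subunit gene INHBA (-2.52 ± 0.34) and IGFN1 (-2.52 ± 0.25). RNA5-8SN5, a ribosomal RNA gene, and RN7SL1, the RNA of the signal recognition particle, also passed the rule, at -5.31 and -2.65. Both rest in size on DMSO b, where RNA5-8SN5 stood at 1067 CPM against 61.8 and 15.9 CPM in DMSO a and c, and where RN7SL1 stood at 103 CPM against 14.7 and 9.29 CPM. Without DMSO b the changes were -2.01 for RNA5-8SN5 and -0.83 for RN7SL1, and both calls were lost without TSA b or without TSA c.

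By amount of RNA, the gains were led by LDHA, the lactate dehydrogenase of glycolysis. It had 4165, 3766 and 3444 CPM with TSA and 2711, 2701 and 2552 CPM with DMSO (log2 change 0.51 ± 0.09). Other large gains were in the ribosomal protein gene RPL13A (0.59 ± 0.17), the fatty acid desaturase gene SCD and the glycolytic enzyme gene ALDOA (0.47 ± 0.13). The calls of RPL13A and ALDOA were lost when any DMSO library was left out, with adjusted p up to 0.0811 and 0.0802. The losses were led by the chaperone gene HSP90AA1, at 7538, 9036 and 9080 CPM with TSA and 12759, 13164 and 12398 CPM with DMSO (log2 change -0.58 ± 0.09). The chaperone gene HSPA8 (-0.86 ± 0.06), the thioredoxin reductase gene TXNRD1 (-1.06 ± 0.11), the mitochondrial ribosomal RNA RNR2 (-0.43 ± 0.14) and the nucleolin gene NCL (-1.22 ± 0.11) came after it. The call of RNR2 was lost when any of the 3 DMSO libraries, TSA b or TSA c was left out, with adjusted p up to 0.117.

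**Figure D2:**
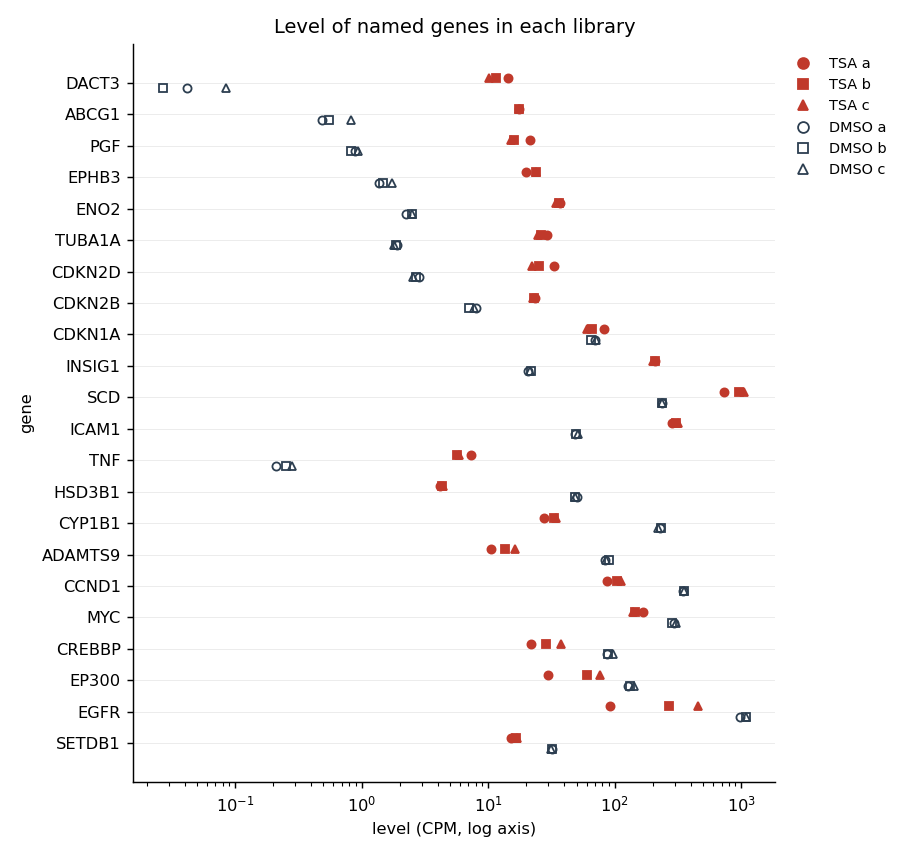
Level of named genes in CPM (log axis), with the TSA libraries as filled red symbols and the DMSO libraries as open dark symbols, the shape giving the replicate letter. The groups overlap for CDKN1A and are apart for the other genes, and TSA a lies farthest from its mates for EGFR (92.1, 267 and 456 CPM).

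Genes known to respond to HDAC inhibitors were mostly higher, but not CDKN1A. Of 18 genes on this list, 12 were called higher and 2 lower, with a median log2 change of 0.77 beside 0.03 over all genes tested. Without TSA a the counts were 12 and 3, beside 36.3% and 35.3% over all genes. NDRG1, a gene of differentiation and stress, had 318, 338 and 344 CPM with TSA and 85.7, 84.3 and 85.6 CPM with DMSO (1.97 ± 0.07). The actin-severing protein gene GSN rose by 1.04 ± 0.07, DHRS2 by 0.87 ± 0.07, CLU by 0.84 ± 0.10 and TXNIP by 0.60 ± 0.07 on the log2 scale. CDKN1A, which encodes the CDK inhibitor p21, had 83, 66.1 and 60.7 CPM with TSA and 70.2, 65.2 and 70.9 CPM with DMSO. These groups overlapped, the log2 change was 0.02 ± 0.12 and the adjusted p 0.879; without TSA a it was -0.13 ± 0.06 (adjusted p = 0.0783). THBS1, the matrix glycoprotein thrombospondin, and the transcription factor gene KLF6 were the 2 members called lower, at -2.06 ± 0.14 and -1.04 ± 0.11.

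Other CDK inhibitor genes rose. CDKN2D, the INK4 inhibitor p19, had 33.1, 25.3 and 22.1 CPM with TSA and 2.83, 2.71 and 2.55 CPM with DMSO (log2 change 3.31 ± 0.17). CDKN2C, the INK4 inhibitor p18, rose by 2.74 ± 0.18 and CDKN2B, the INK4 inhibitor p15, by 1.59 ± 0.08. CDKN1C, or p57, was 5.94 ± 0.57 higher on the log2 scale from a DMSO level of at most 0.0279 CPM, or 5 reads over the 3 DMSO libraries, so that its size depends on the prior count of the fit. The groups overlapped for CDKN1A, CDKN1B and CDKN2A, so that 4 of 7 members were called higher and 0 lower. On the side of the kinases they act on, 3 of 14 G1 cyclin and kinase genes were called higher and 7 lower (median -0.36). CCND1, the cyclin that EGFR signalling sustains, fell to 86.8, 105 and 113 CPM with TSA, against 347, 351 and 353 CPM with DMSO (-1.79 ± 0.11). CDK6 fell by 1.56 on the log2 scale, the cyclin E gene CCNE2 by 1.69 and the phosphatase gene CDC25A by 1.44, while the cyclin D3 gene CCND3 rose by 1.03 ± 0.12.

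The HDAC genes themselves moved in both directions. HDAC11 had 25.2, 25.1 and 26 CPM with TSA and 9.36, 7.98 and 8.41 CPM with DMSO (log2 change 1.57 ± 0.09). HDAC5 rose by 1.66 ± 0.14, HDAC3 by 0.65 ± 0.07, HDAC1 by 0.47 ± 0.06, HDAC6 by 0.35 ± 0.10 and HDAC8 by 0.33 ± 0.08. HDAC9 had 8.34, 12 and 13.4 CPM with TSA and 36.8, 38.7 and 37 CPM with DMSO (-1.73 ± 0.17). HDAC7 fell by 0.73 and HDAC2 by 0.31 on the log2 scale, while HDAC4 (0.03 ± 0.12) and HDAC10 (-0.02 ± 0.11) had overlapping groups. The counts are 6 of 11 higher and 3 lower, beside 29.8% higher and 26.9% lower over all genes tested. HDAC6 lost its call when any DMSO library, TSA b or TSA c was left out (adjusted p up to 0.0938), and HDAC8 without DMSO c (0.0703). Among the sirtuins, deacetylases that use NAD and that TSA is not known to block, 3 of 7 were higher and 2 lower, near the shares over all genes. SIRT4 stood at 2.83 ± 0.21 and SIRT1 at -0.76 ± 0.15.

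Acetyltransferase genes were mostly lower. Of 10, 6 were called lower and 1 higher, with a median log2 change of -1.18. CREBBP had 21.7, 28.7 and 37.8 CPM with TSA and 86.4, 89.3 and 96.8 CPM with DMSO (-1.62 ± 0.19). EP300 had 29.9, 60 and 76.8 CPM with TSA and 128, 132 and 141 CPM with DMSO (-1.27 ± 0.31). In both, TSA a was the lowest library and the groups did not overlap. KAT6B fell by 1.77, KAT5 by 1.26, KAT7 by 1.25 and KAT2A by 1.11 on the log2 scale. KAT2B was the member called higher (0.37 ± 0.11), a call lost when any DMSO library or TSA b was left out (adjusted p up to 0.106). Of 14 genes for acetyl-lysine readers and elongation factors, 3 were higher and 6 lower, among them the bromodomain gene BRD2 (-1.06 ± 0.13) and MEPCE, which caps the 7SK RNA that holds elongation factor P-TEFb (-2.18 ± 0.12).

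Genes of cholesterol and fatty acid synthesis were higher as a group. Of 28 listed, 21 were called higher and 1 lower, with a median log2 change of 0.91. INSIG1, which retains the sterol sensor SCAP in the endoplasmic reticulum and is itself induced by SREBP factors, had 210, 208 and 200 CPM with TSA and 20.8, 21.8 and 21.6 CPM with DMSO (3.27 ± 0.07, adjusted p = 6.69e-06). SCD had 732, 967 and 1061 CPM with TSA and 235, 237 and 235 CPM with DMSO (1.96 ± 0.14). The TSA libraries of these genes lay far above the DMSO libraries. Along the mevalonate pathway, HMGCS1 rose by 1.64 ± 0.12, MVK by 2.44 ± 0.09, MVD by 1.68 ± 0.10 and IDI1 by 1.94 ± 0.08. Further members, named after their values were seen, were FDFT1 at 1.45 ± 0.08, SQLE at 1.32 ± 0.06, LSS at 1.55 ± 0.10, MSMO1 at 1.77 ± 0.08 and DHCR7 at 1.37 ± 0.07. The SREBP genes SREBF2 (0.77 ± 0.13) and SREBF1 (0.61 ± 0.09) were higher too. Of the fatty acid genes, ELOVL6 was lower (-0.50 ± 0.09), and FASN (0.19 ± 0.22), ACACA (0.12 ± 0.21) and ACLY (-0.01 ± 0.10) were not called. Without TSA a, 24 of the 28 were higher and 1 lower, beside 36.3% and 35.3% over all genes.

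**Figure D3:**
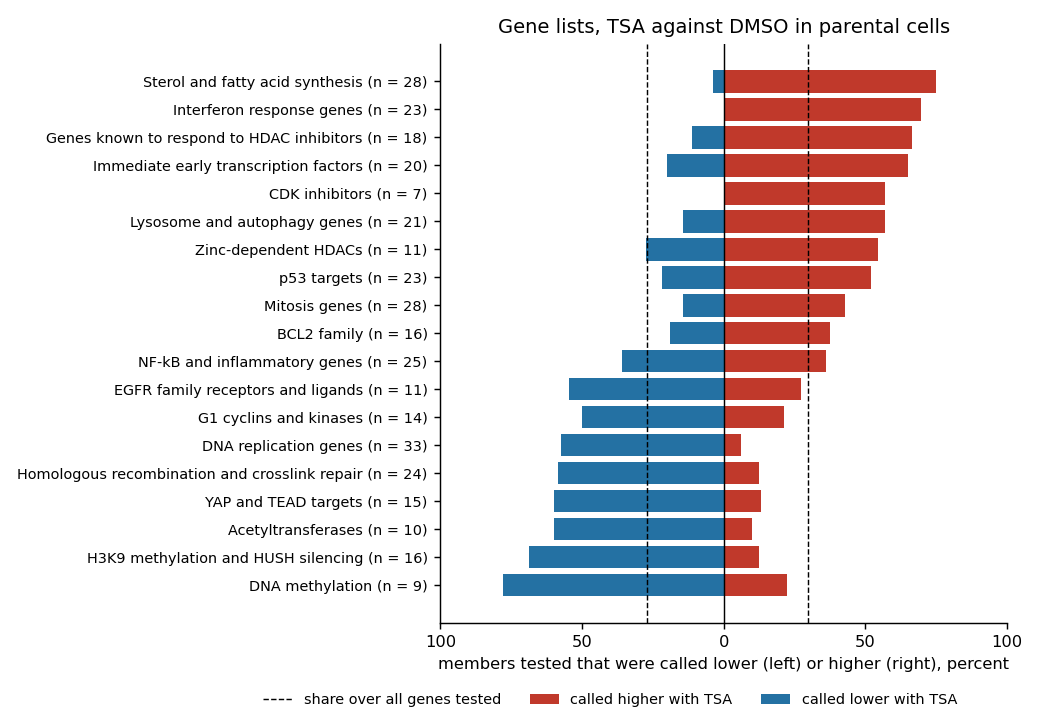
Share of the tested members of each gene list that were called higher (red, to the right) or lower (blue, to the left) with TSA against DMSO, in percent, with the number tested in brackets. Dashed lines mark the shares over all genes tested, 29.8% higher and 26.9% lower, and the lists of sterol synthesis and of DNA methylation lie farthest past them to the right and to the left.

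Interferon response genes were higher from very low levels. Of 32 listed, 23 passed the filter on low reads, and 16 of these were called higher and 0 lower (median 0.94). A member that passed the filter only through the TSA libraries had to differ, so the count is a description. IFIT1, an RNA sensor of the antiviral response, had 3.22, 3.45 and 3.19 CPM with TSA and 0.279, 0.134 and 0.297 CPM with DMSO (log2 change 3.76 ± 0.27). HERC5, the ligase that attaches ISG15, had 2.39, 2.67 and 2.98 CPM with TSA and 0.475, 0.416 and 0.425 CPM with DMSO (2.61 ± 0.17). OASL rose by 1.67 ± 0.12, ISG15 by 1.35 ± 0.28, the transcription factor gene STAT2 by 1.13 ± 0.12 and IRF1 by 1.12 ± 0.08. IFIT2 (0.06 ± 0.15), IFIT3 (-0.28 ± 0.25) and USP18 (-0.03 ± 0.11) were not called. Of 17 genes of MHC class I presentation, 3 were higher and 4 lower, beside 29.8% higher and 26.9% lower over all genes tested. There the proteasome subunit gene PSMB9 (1.96 ± 0.21) and the peptide transporter gene TAP1 (0.55 ± 0.07) rose, and the transporter gene TAP2 (-0.82 ± 0.08) and the chaperone gene CANX (-0.83 ± 0.09) fell.

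Of 25 inflammatory genes, 9 were called higher and 9 lower, shares near the 29.8% and 26.9% over all genes. Without TSA a the counts were 9 and 12, beside 36.3% and 35.3%. Single members moved far. ICAM1, an adhesion molecule, had 284, 308 and 314 CPM with TSA and 49, 49.5 and 51.2 CPM with DMSO (2.60 ± 0.08). The cytokine gene TNF had 7.37, 5.73 and 5.87 CPM with TSA and 0.209, 0.255 and 0.283 CPM with DMSO (4.66 ± 0.19). The chemokine gene CCL20 (3.54 ± 0.17), the NF-kB inhibitor gene NFKBIA (1.67 ± 0.11) and TNFAIP2 (1.68 ± 0.07) rose as well. On the other side IL1B had 9.53, 8.75 and 7.88 CPM with TSA and 41.1, 40.2 and 39 CPM with DMSO (-2.20 ± 0.10), and IL1A (-1.86 ± 0.09), LIF (-1.76 ± 0.10), NFKB1 (-1.31 ± 0.11) and TNFAIP3 (-1.29 ± 0.13) fell. Of 20 genes on a list of immediate early transcription factors, which also holds the survival gene MCL1, 13 were higher and 4 lower (median 0.73). EGR1 had 31.7, 30 and 30.2 CPM with TSA and 9.27, 8.29 and 9.72 CPM with DMSO (1.75 ± 0.09), and JUND (1.56 ± 0.28), NR4A3 (3.33 ± 0.32) and FOS (0.73 ± 0.07) rose. MYC fell to 168, 146 and 140 CPM with TSA, against 292, 286 and 308 CPM with DMSO (-0.97 ± 0.09), and the other members called lower were FOSL1 (-1.20 ± 0.15), FOSL2 (-0.92 ± 0.11) and MCL1 (-0.45 ± 0.08).

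EGFR, the receptor PC9 depends on, was lower, with a wide spread. It had 92.1, 267 and 456 CPM with TSA and 980, 1090 and 1096 CPM with DMSO. The groups did not overlap, and TSA a was the lowest library by far. The log2 change was -1.96 ± 0.51 (adjusted p = 0.0147), -1.56 without TSA a (adjusted p = 6.17e-06), and the call was lost without TSA b (adjusted p = 0.0518) and with spike-in reads as library sizes. Of 11 receptors and ligands of the EGFR family, 3 were higher and 6 lower. The ligand genes TGFA (-1.01 ± 0.10), EREG (-0.90 ± 0.09), HBEGF (-0.51 ± 0.07) and NRG1 (-1.80 ± 0.25) fell, while ERBB3 (0.47 ± 0.13), AREG (0.66 ± 0.15) and NRG2 (2.13 ± 0.26) rose. Among 16 genes of EGFR and ERK output, 4 were higher and 7 lower, beside 29.8% higher and 26.9% lower over all genes tested. ETV5 stood at 1.43 ± 0.09 and PHLDA1 at -0.96 ± 0.08.

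Genes of DNA replication and of homologous recombination were mostly lower, and genes of mitosis were not. Of 33 replication genes, 2 were higher and 19 lower (median -0.32). The helicase subunits MCM2 to MCM7 each fell, MCM2 to 113, 110 and 113 CPM with TSA, against 179, 174 and 183 CPM with DMSO (-0.67 ± 0.06). The GINS subunit gene GINS3 fell by 1.16 and the ribonucleotide reductase gene RRM2 by 0.67 on the log2 scale. Of 24 genes of homologous recombination and crosslink repair, 3 were higher and 14 lower (median -0.49). NBN, part of the complex that senses double-strand breaks, had 57, 68.1 and 72.3 CPM with TSA and 133, 137 and 134 CPM with DMSO (-1.03 ± 0.10). BRCA2 had 7.23, 15.2 and 21.2 CPM with TSA and 43.4, 47.3 and 46.7 CPM with DMSO (-1.65 ± 0.35), again with TSA a lowest. Of 28 mitosis genes, 12 were higher and 4 lower (median 0.20). The kinase gene NEK2 had 119, 127 and 128 CPM with TSA and 44.7, 45.8 and 42.8 CPM with DMSO (1.49 ± 0.07), and CDC25C (1.40 ± 0.09), CCNB2 (1.05 ± 0.10) and BUB1 (0.71 ± 0.11) rose. The proliferation marker MKI67 had overlapping groups, at 144, 237 and 319 CPM with TSA and 301, 325 and 336 CPM with DMSO (-0.46 ± 0.26, adjusted p = 0.169). With spike-in reads as library sizes, 4 replication genes and 1 recombination gene were called lower, and 6 mitosis genes were called higher and 0 lower. On that scale 2929 of all 15792 genes were called higher and 1516 lower.

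Of 16 BCL2 family genes, 6 were higher and 3 lower, beside 29.8% higher and 26.9% lower over all genes. Without TSA a the counts were 6 and 5, beside 36.3% and 35.3%. BBC3, a BH3-only killer gene, had 7.09, 4.49 and 4.52 CPM with TSA and 0.684, 0.644 and 0.722 CPM with DMSO (2.96 ± 0.23). BMF, another BH3-only gene, had 7.53, 10.5 and 11.5 CPM with TSA and 1.95, 1.46 and 1.59 CPM with DMSO (2.57 ± 0.20). The survival genes BCL2L1 (-0.73 ± 0.06) and MCL1 and the BH3-only gene PMAIP1 (-0.51 ± 0.07) were lower, and the BH3-only gene BCL2L11 was not called (-0.05 ± 0.08). Of 23 p53 target genes, 12 were higher and 5 lower, with TP53INP1 at 4.17 ± 0.23, BTG2 at 2.74 ± 0.13 and the p53 ligase gene MDM2 at -0.93 ± 0.07. Of 14 death receptor and ligand genes listed, 12 were tested and 2 were higher and 5 lower, among them the TRAIL receptor gene TNFRSF10A (-2.29 ± 0.34).

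Genes of the lysosome and of autophagy were higher in 12 of 21 cases and lower in 3 (median 0.48). TFEB, the transcription factor that drives lysosomal genes, had 5.12, 4.31 and 4.05 CPM with TSA and 0.614, 0.657 and 0.793 CPM with DMSO (2.71 ± 0.17). The sialidase gene NEU1 rose by 1.74 ± 0.10, WIPI1 by 1.59 ± 0.09, GABARAPL1 by 1.28 ± 0.09 and MAP1LC3B by 1.14 ± 0.10, while the receptor gene SQSTM1 fell by 0.60 on the log2 scale. Of 15 target genes of YAP and TEAD, 2 were higher and 9 lower (median -0.38). The LIM protein gene AJUBA had 16.8, 18.5 and 18.1 CPM with TSA and 51, 50.7 and 48.8 CPM with DMSO (-1.49 ± 0.07), the tissue factor gene F3 fell by 1.25, and CCN2 rose by 1.84 ± 0.17. With spike-in reads as library sizes, 3 of the 15 were called lower, beside 1516 of all 15792 genes.

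Genes of the nervous system were few among those tested, at 15 of 41, since the others had too few reads. Of these 8 were higher and 1 lower (median 0.55), beside 29.8% higher and 26.9% lower over all genes tested. A member that passed the filter only through the TSA libraries had to be higher there, so this count too is a description. RAB3A, a GTPase of synaptic vesicles, had 10.7, 8.53 and 7.94 CPM with TSA and 0.461, 0.751 and 0.75 CPM with DMSO (3.78 ± 0.23). Of 13 tubulin genes tested, 5 were higher and 3 lower. Without TSA a 5 were higher and 6 lower, beside 36.3% and 35.3% over all genes. Beside TUBA1A, the genes TUBB2B (1.77 ± 0.11), TUBB3 (1.74 ± 0.14), TUBB2A (1.30 ± 0.15) and the gamma-tubulin gene TUBG2 (0.57 ± 0.17) rose, while the abundant genes TUBA1C (-0.67 ± 0.11), TUBA4A (-0.63 ± 0.10) and TUBB (-0.39 ± 0.08) fell.

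Genes on the lists of H3K9 methylation and HUSH and of DNA methylation were mostly lower. Of 16 genes of H3K9 methylation and the HUSH complex, 2 were higher and 11 lower (median -0.48). SETDB1, the H3K9 methyltransferase that silences retroelements, had 15.3, 16.5 and 16.9 CPM with TSA and 31.9, 32.1 and 31.3 CPM with DMSO (-0.97 ± 0.08, adjusted p = 9.53e-05). The groups did not overlap. SUV39H1 (-0.76 ± 0.09), SUV39H2 (-0.64 ± 0.07) and the HUSH subunit gene TASOR (-0.96 ± 0.13) fell too. With spike-in reads as library sizes, 1 of the 16 was called lower, beside 1516 of all 15792 genes. SETDB1 kept its call under every alternative tried. Of 9 genes on a DNA methylation list, which mixes genes that add and genes that remove it, 2 were higher and 7 lower (median -0.61). UHRF1, which recruits the maintenance methyltransferase, had 49.3, 45.3 and 47.2 CPM with TSA and 108, 104 and 113 CPM with DMSO (-1.20 ± 0.07). The maintenance enzyme gene DNMT1 (-0.94 ± 0.18) and the demethylating dioxygenase gene TET3 (-2.08 ± 0.19) fell, and DNMT3B rose by 1.24 ± 0.11. TET1, the other member called higher, had overlapping groups at 0.185, 0.494 and 0.632 CPM with TSA and 0.14, 0.107 and 0.212 CPM with DMSO, and its call was lost when any library but TSA a was left out (adjusted p up to 0.109). With spike-in reads as library sizes, 2 of the 9 were called lower, beside the same 1516 of 15792.

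Of 1014 repeat subfamilies tested, 81 were higher (7.99%) and 148 lower (14.6%), with a median log2 change of -0.11. The count turned on single libraries, with 377 called without TSA a and between 23 and 51 when a DMSO library or TSA b was left out. Of the 7 LTR12 subfamilies, 3 were higher and 0 lower. LTR12C had 75.8, 73 and 74.9 CPM with TSA and 33.3, 33.1 and 34.7 CPM with DMSO (1.14 ± 0.06, adjusted p = 4.71e-04). LTR12 had 9.22, 8.29 and 8.79 CPM with TSA and 3.67, 3.54 and 3.38 CPM with DMSO (1.31 ± 0.11, adjusted p = 0.0026). LTR12D had 6.07, 9.12 and 9.89 CPM with TSA and 3.62, 3.77 and 4.11 CPM with DMSO (1.13 ± 0.19, adjusted p = 0.0127). The groups did not overlap, and the call of LTR12D was lost when any DMSO library or TSA b was left out (adjusted p up to 0.0698). With all repeat reads as library sizes, a scale on which the structural RNA of DMSO b counts, the changes were 1.52 for LTR12, 1.34 for LTR12C and 1.33 for LTR12D, and these calls were lost. LTR12B, LTR12E, LTR12F and LTR12_ had overlapping groups and changes between 0.05 and 0.34.

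Of the 6 youngest L1 subfamilies, 3 were called lower and 0 higher, and without TSA a 5 and 0. Over all 1014 subfamilies, 242 were lower and 135 higher without TSA a. L1HS, the youngest human L1 subfamily, had 18.2, 30.2 and 36.1 CPM with TSA and 51.8, 54.6 and 52.4 CPM with DMSO (-0.91 ± 0.23, adjusted p = 0.0343). L1PA2 had 26.7, 42.3 and 53.6 CPM with TSA and 71.6, 76.3 and 71.7 CPM with DMSO (-0.84 ± 0.23, adjusted p = 0.0412). L1PA5 had 45.6, 72.9 and 92.5 CPM with TSA and 122, 138 and 131 CPM with DMSO (-0.89 ± 0.23, adjusted p = 0.0378). Every TSA library lay below every DMSO library, and TSA a, the library that gave less to long transcripts, was the lowest. Without TSA a the changes were -0.68 for L1HS, -0.62 for L1PA2 and -0.67 for L1PA5 (adjusted p at most 5.85e-04). The calls of L1HS and L1PA2 were lost when any DMSO library or TSA b was left out (adjusted p up to 0.114 and 0.133), and with spike-in or repeat reads as library sizes. L1PA3 (-0.43 ± 0.18), L1PA4 (-0.35 ± 0.19) and L1PA6 (-0.79 ± 0.25) were not called, with adjusted p of 0.126, 0.207 and 0.0583, although only L1PA3 and L1PA6 of these were called without TSA a. Of 91 older L1M subfamilies tested, 3 were higher and 35 lower (median -0.40), against 5 and 58 without TSA a. With repeat reads other than structural RNA as library sizes they were 4 and 23, beside 98 and 91 of all 1014. With spike-in reads as library sizes, edgeR called 0 subfamilies of these L1 lists in either direction, where 25 of all 1014 subfamilies were called. On that scale the median log2 change was -0.74 for the youngest L1 (against -0.82) and -0.40 for L1M (against -0.40). The coefficient of variation between libraries was 0.314 against 0.229. At an unadjusted p under 0.05 on that scale, 0 of the 6 youngest and 16 of the 91 L1M subfamilies were lower. DESeq2 called 42 of the 91 lower on its own scale. The part of transcript length in the L1 values was not tested.

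**Figure D4:**
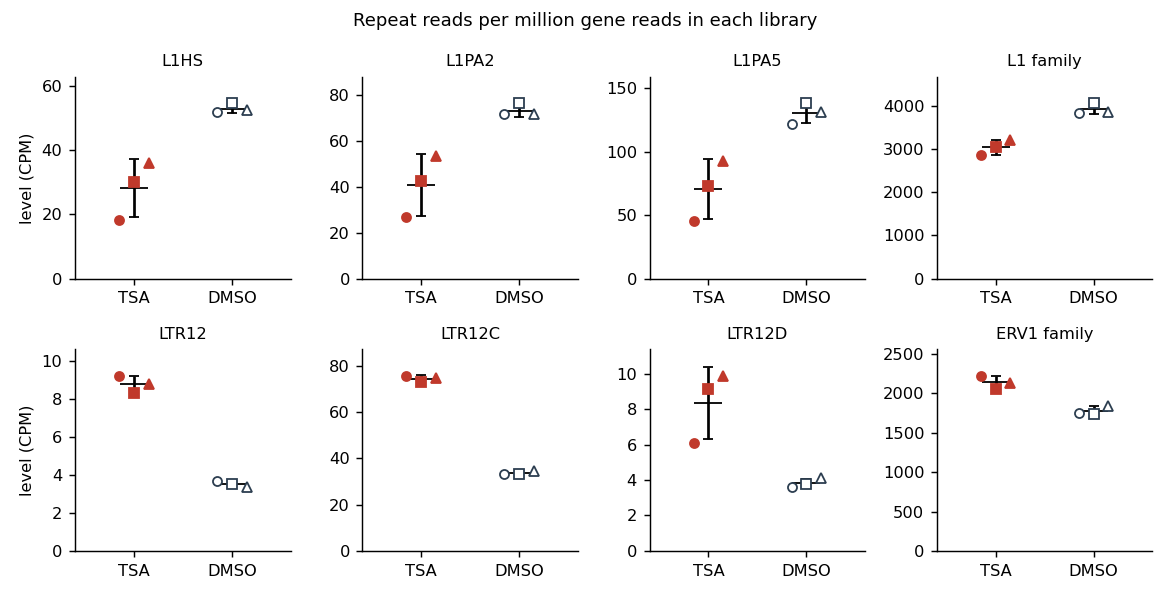
Level in CPM of L1 and LTR12 subfamilies and of the L1 and ERV1 families in each library, with TSA left and DMSO right, symbols for replicates a, b and c, and bars for the mean and SD (n = 3). L1 lies lower with TSA, with TSA a lowest, while LTR12C is at 73 CPM or more with TSA and at 34.7 CPM or less with DMSO.

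At the level of families, 4 of 57 were higher (7.02%) and 8 lower (14%). The L1 family had 2875, 3045 and 3224 CPM with TSA and 3850, 4064 and 3875 CPM with DMSO (-0.37 ± 0.06, adjusted p = 0.0177). The ERV1 family, which holds LTR12, had 2224, 2062 and 2136 CPM with TSA and 1756, 1733 and 1842 CPM with DMSO (0.27 ± 0.05, adjusted p = 0.0226). SVA, a composite element that L1 proteins mobilise, had 116, 95.4 and 96.9 CPM with TSA and 80.8, 78.6 and 81.2 CPM with DMSO (0.36 ± 0.08). The groups did not overlap in these families. The other higher families were centr (0.29 ± 0.07) and MULE-MuDR (0.94 ± 0.19), and the other lower ones L2, Simple_repeat, hAT, hAT-Tip100, hAT-Blackjack, TcMar-Tigger and scRNA, between -0.89 and -0.20. Alu had 2627, 2550 and 2644 CPM with TSA and 2719, 2630 and 2559 CPM with DMSO, and the groups overlapped (-0.02 ± 0.05). With all repeat reads as library sizes, 2 families were called. Of the 12 families called, hAT-Tip100 (-0.58 ± 0.05) kept its call whichever library was left out. The subfamilies with the largest rises were LTR2C (2.24 ± 0.30), at 49.3, 28.7 and 21.3 CPM with TSA and 7.06, 6.88 and 7.05 CPM with DMSO, then MLT1E2-int (1.91 ± 0.28), MER9a1 (1.91 ± 0.37), MER87 (1.70 ± 0.47) and LTR15 (1.66 ± 0.39). The largest falls were in (GATG)n (-2.81 ± 0.35), (CTCTGT)n (-2.71 ± 0.72), L1P4 (-1.97 ± 0.40), LTR1B1 (-1.95 ± 0.30) and (CAC)n (-1.94 ± 0.53). Of these 10, LTR2C and (GATG)n were the ones whose call held whichever library was left out. Unique and shared reads of a repeat cannot be told apart in these tables, and a read in a repeat may come from the transcript of a gene that holds it.

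The same dose and time of TSA in DTP cells gave 29.1% of 17485 genes higher and 27% lower in a fit of 11 libraries. Over the 15792 genes tested above, that fit called 5379 higher and 5091 lower in parental cells. In DTP cells, which had 2 TSA libraries where parental cells had 3, it called 4522 higher and 4606 lower. The effects differed in many genes. In the test of the difference between the TSA effects, 3401 genes had a more positive effect in parental cells (19.5%) and 3110 a more negative one (17.8%). Without parental TSA a these were 5759 and 3621 (61.4% of calls more positive, against 52.2%). The comparisons have no library in common, but share 1 fit, and the starting levels of DTP and parental cells differ. TUBA1A shows this, since it had 150 and 142 CPM in DTP cells with TSA and 148, 147 and 145 CPM in DTP cells without (log2 change -0.00 ± 0.08), a level that parental cells with TSA did not reach. The difference of 3.84 ± 0.12 was the largest among the genes with the largest rises and falls (adjusted p = 3.07e-08). CDKN1A rose in DTP cells, with 99.3 and 93 CPM in DTP cells with TSA and 42.6, 44 and 44.4 CPM without (1.14 ± 0.12), and its effect in parental cells was 1.12 lower on the log2 scale (difference -1.12 ± 0.16, adjusted p = 4.36e-04).

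Sterol genes were mostly higher with TSA in parental cells and split in DTP cells. Of 28, 7 were higher and 9 lower in DTP cells (median -0.03), and for 24 the effect was more positive in parental cells and for 0 more negative. INSIG1 had 68 and 67.2 CPM in DTP cells with TSA and 58.8, 59.8 and 59.5 CPM in DTP cells without (0.19 ± 0.06), a difference of 3.06 ± 0.08 from parental cells (adjusted p = 9.13e-09). MVK was the sterol gene that rose most in DTP cells, by 1.03 ± 0.08. Interferon response genes were mostly lower with TSA in DTP cells, where 32 were tested, 2 were higher and 25 lower (median -1.16). For 28 the effect was more positive in parental cells and for 0 more negative. Of these 32 genes, 9 had too few reads for the test in parental cells alone and entered through DTP cells, where they are high, so these counts are a description too. Of the 23 tested in both fits, 16 were lower in DTP cells and 23 had the more positive effect in parental cells. IFIT1 had 33.4 and 32 CPM in DTP cells with TSA and 109, 107 and 107 CPM without (-1.72 ± 0.12, difference 5.47 ± 0.20), so that its DTP level with TSA still exceeded the 3.22, 3.45 and 3.19 CPM of parental cells with TSA. IFIT3 fell by 3.02 ± 0.17 in DTP cells and moved by -0.27 ± 0.17 in parental cells in this fit. Mitosis genes followed the same order, with 2 of 28 higher and 17 lower in DTP cells, and with 22 more positive and 0 more negative in parental cells.

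**Figure D5:**
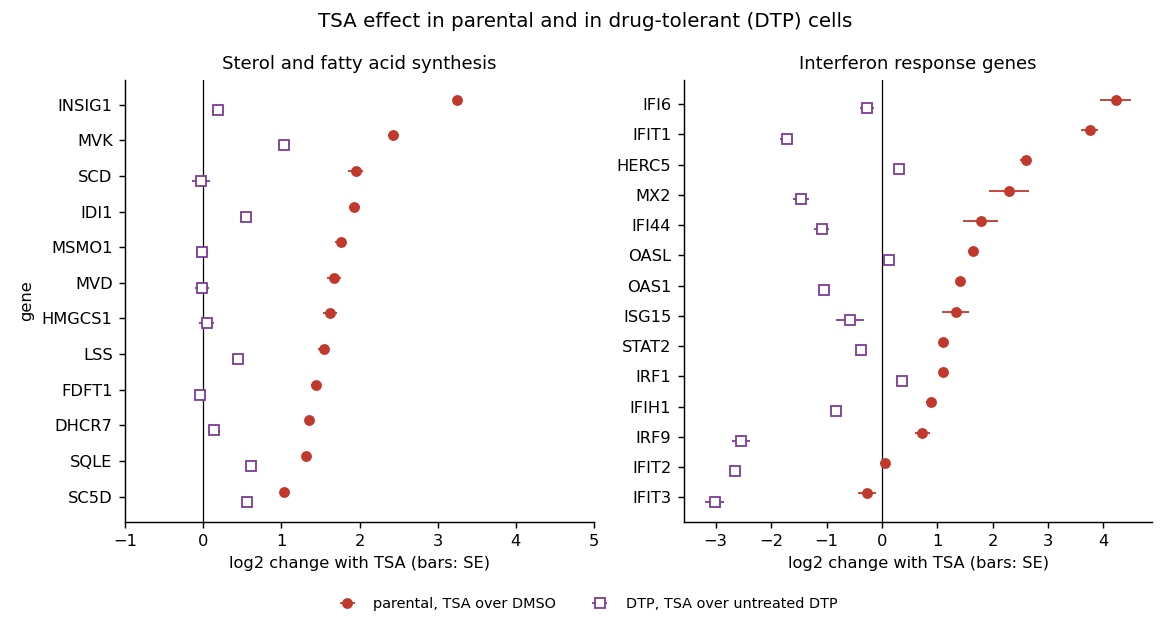
Log2 change with TSA in parental cells over DMSO (filled red circles) and in DTP cells over DTP cells without TSA (open purple squares) for sterol and interferon genes. Bars give the SE from the same 11-library fit. The legend calls the DTP cells without TSA untreated, but they had been given erlotinib. INSIG1 lies at 3.25 in parental and 0.19 in DTP cells, and IFIT1 lies at 3.75 in parental and -1.72 in DTP cells.

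LTR12, LTR12C and LTR12D had the larger rise in DTP cells. LTR12 had 68.6 and 68.6 CPM in DTP cells with TSA and 3.62, 3.39 and 3.32 CPM without (4.31 ± 0.08), and its rise in parental cells was smaller by 3.02 ± 0.11 on the log2 scale (difference -3.02, adjusted p = 3.52e-08). LTR12D had 64.8 and 62.7 CPM in DTP cells with TSA and 4.24, 4.75 and 3.59 CPM without (difference -2.82 ± 0.23). LTR12C had 163 and 168 CPM with TSA and 31.7, 32.5 and 31.4 CPM without (difference -1.25 ± 0.07). The starting levels of all 3 were close to those of parental cells with DMSO. Over the 1085 subfamilies tested for a difference, 37 had a more positive effect in parental cells (3.41%) and 176 a more negative one (16.2%). L1HS and L1PA2 did not differ past the threshold, with differences of -0.56 ± 0.26 (adjusted p = 0.147) and -0.35 ± 0.26 (adjusted p = 0.369), while the difference of L1PA4 was called (-0.70 ± 0.22, adjusted p = 0.044). The L1 family as a whole did differ (-0.52 ± 0.06, adjusted p = 2.45e-04), with a change of 0.13 ± 0.04 in DTP cells (adjusted p = 0.0814). Of 94 L1M subfamilies, 2 had a more positive effect in parental cells and 46 a more negative one. Of the 6 youngest L1 subfamilies, the counts were 0 and 3. Parental TSA a, the lowest L1 library of its group, was in this fit.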

How the data were processed

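The authors deposited expected counts per gene, repeat subfamily, repeat family and ERCC spike-in, estimated with Salmon per the submitters' processing notes; the build and annotation they used were not given in these sources. In each table, 3 more columns matched none of the samples and were left aside. Expected counts were rounded to whole numbers. Symbols were found for 27814 of 30727 gene identifiers, and the rest held 0.247% of gene reads. Genes were tested with edgeR 4.0.16 (quasi-likelihood, filterByExpr, TMM) in R 4.3.3 on the 6 libraries, and repeats on the library sizes of genes, with Benjamini-Hochberg adjustment and a threshold of 0.05. The test of the difference between parental and DTP cells used 11 libraries, leaving out DTP with TSA replicate a. In earlier results that library had given a large part of its reads to the spike-in. With it included, 3284 genes had a more positive effect in parental cells and 2073 a more negative one. CPM are counts scaled to the TMM-adjusted gene reads of each library. Transcript lengths are medians over protein-coding transcripts of GENCODE 29. The depth of 68.8 M to 128 M gene reads sets the counting error.

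Members and lists were chosen with earlier results of these data known. Named were the 10 largest rises and falls at 10 CPM or more that did not overlap and held without TSA a, the 5 largest gains and losses in CPM, up to 4 called members with the smallest p in each list, members of lists of 11 or fewer, a set of always named genes and repeats, and the 5 subfamilies with the largest rise and fall at 1 CPM or more. Some genes that this rule names are not reported here. Other list members in the text were named after their values were seen. The alternatives tried were other filters, DESeq2 1.42.0 (and edgeR with its size factors), other sets of libraries, the replicate block, spike-in and repeat reads as library sizes and leaving out each library. Removal of the length trend, TSA c alone, repeat library sizes without structural RNA and the difference test on repeats were added after seeing the data.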

Additional observations from a re-analysis of the deposited data

Results flagged for a closer look

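Of 38 genes of the rule with a test of the difference between the TSA effects in parental and DTP cells, 23 were called, and 4 repeats were called too. These are values of the parental log2 change minus the DTP log2 change. The effect was more positive in parental cells for TUBA1A (3.84), NEURL1B (2.99), TJP3 (2.25), CAPN5 (1.70), CLCF1 (1.63), ABCG1 (1.30), SSBP2 (1.24) and ENO2 (0.33). It was more negative in parental cells for IGFN1 (-1.99), ADAMTS9 (-1.48), HSD3B1 (-1.46), CDKN1A (-1.12), EPHB3 (-0.61) and ZNF469 (-0.49). CLCF1, lower in both, fell by 4.33 on the log2 scale in DTP cells, to 0.735 and 0.803 CPM in DTP cells with TSA, against 16, 15.1 and 15.5 CPM in DTP cells without. HSD3B1 fell in both, and in DTP cells the change was -2.08.

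Among the genes always named, the differences were 0.49 for MYC, -0.32 for CCND1 and 0.35 for SETDB1, each of which fell in both kinds of cell. Among the HDAC genes they were 0.94 for HDAC7, 0.89 for HDAC5, 0.82 for HDAC6, 0.70 for HDAC11, 0.38 for HDAC8 and -0.60 for HDAC9. HDAC6 had a change of -0.49 in DTP cells, opposite in sign to that in parental cells. Among repeats they were -3.02 for LTR12, -2.82 for LTR12D, -1.25 for LTR12C and -0.70 for L1PA4.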

How the results depend on the processing

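Of 236 named features that were called, 165 kept direction and side of the threshold under every alternative run for them, 236 without TSA a and 198 whichever library was left out. The count of genes changed by TSA was 4445 with spike-in library sizes and ranged from 6977 to 11311 when single libraries were left out. Repeat subfamilies called were 505 with 17 libraries in the fit, 29 with repeat library sizes, 152 with the replicate block, 25 with spike-in library sizes and 23 to 377 when single libraries were left out. Repeat families called were 28 with 17 libraries, 20 with DESeq2, 21 with 18 libraries, 2 with repeat library sizes, 2 with the replicate block, 0 with spike-in library sizes (on the gene scale, 27 had an unadjusted p under 0.05) and 1 to 20 when single libraries were left out. The cause was not tested.

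The replicate letters were not found to pair the samples: deviations of same-letter libraries correlated at 0.068, 0.0602 and 0.00449, and the block gave 8584 genes, 4450 higher and 4134 lower. The difference test called 4507 to 9380 genes, and TSA in DTP cells 7647 to 12654, when single libraries were left out. With DTP TSA replicate a included, 61.3% of differences were positive. Values that changed sign were small. The spike-in difference was -0.04 without TSA a and up to 0.28 without TSA c. HDAC4 was -0.15 with the length trend removed and from -0.08 without TSA c to 0.12 without TSA a, and HDAC10 ran from -0.10 without DMSO b to 0.05 without DMSO c, with 0.03 without TSA b. KAT6A was 0.01 with TSA c alone, KAT8 -0.08 with the length trend removed and -0.01 with TSA c alone, and HAT1 -0.11 with the length trend removed. CDKN1A was -0.13 with the length trend removed and without TSA a, -0.18 with TSA c alone, -0.01 with spike-in sizes and without DMSO b, and 0.12 without TSA c. CDKN1B was -0.17 with the length trend removed, -0.02 with TSA c alone and from -0.01 without TSA a to 0.09 without TSA c, and the L2 family 0.01 with repeat library sizes.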

Other observations

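The counts in this paragraph stand beside 29.8% higher and 26.9% lower over all genes tested, and those without TSA a beside 36.3% and 35.3%. Of 20 heat shock genes, 8 were called higher and 7 lower. These counts and those of the lung lineage factors lie near the shares over all genes and are not read as a result. The Notch pathway had 5 of 14 higher and 1 lower, and 5 and 4 without TSA a, and is not read as a result either. Its target gene HEY1 stood at 2.88 and its ligand gene JAG1 at -1.44. Of 11 lung lineage factors 3 were higher and 4 lower, with SOX2 at 3.41. Of 17 aldehyde dehydrogenase genes 10 were higher and 3 lower, with ALDH1A3 at -1.43. Polycomb genes were higher in 5 of 23 cases and lower in 11, and cytosolic ribosomal protein genes higher in 3 of 34 and lower in 0. Mitochondrially encoded genes were lower in 4 of 15 cases with TSA a and in 14 of 15 without it, and higher in 0 of both. The mitochondrial share of gene reads was 5.31%, 3.88% and 3.5% with TSA and 4.35%, 4.08% and 4.34% with DMSO.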
